A study of Mus musculus with 3 samples.

Results

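The lipoxygenase genes of the mouse were followed in healing skin wounds. The set holds 7 genes for arachidonate lipoxygenases (Alox5, Alox8, Alox12, Alox12b, Alox12e, Alox15 and Aloxe3) and Alox5ap, the gene for the 5-lipoxygenase activating protein. The 8 genes were taken by symbol from the annotation of the array platform, out of 19938 genes with a value, and each was measured by 1 probe set that carried no other gene symbol. The family was selected on log2 differences between days, among which those of Alox8 and Alox12e are near the top, and its members then by name, so these differences are given as a description and without a test.

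The animals were C57Bl/6 mice, an inbred strain with no further genetic change named in the labels, aged 6 weeks. Every mouse, at each time, had received a back wound of 1.5 cm2 through all layers of the skin, and no unwounded or untreated group is part of the comparison. Wound dermis with whatever epidermis covered it was dissected 10, 12 or 14 days after the injury, away from intact skin and edge follicles. Tissue of 3 mice was pooled for each day and hybridised to 1 array, so the days are compared with no replicate error, and no test across genes or p-value is given.

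Lipoxygenases are iron enzymes that add molecular oxygen to polyunsaturated fatty acids such as arachidonic and linoleic acid and so form fatty acid hydroperoxides. In the epidermis, the enzymes of Alox12b and Aloxe3 act in sequence on linoleate held in acylceramides of the outer layers, a step needed for the lipid envelope of the cornified cells and for the water barrier, and loss of either in humans causes ichthyosis. In leukocytes, the enzyme of Alox5 makes leukotrienes with the help of the membrane protein encoded by Alox5ap.

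The array medians over 35556 probe sets lay between 7.53 and 7.55 log2 units, and 23.1% of the probe sets held the same value on all 3 arrays. None of the lipoxygenase genes had such tied values. Defining genes of the labelled tissue were present on all days. Krt5 and Krt14, keratins of the basal epidermis, stood between 13.2 and 13.3, and Col1a1 and Col3a1, the main fibrillar collagens of the dermis, stood between 13.0 and 13.5. The pools differed in transcripts of the Y chromosome. Eif2s3y stood at 5.49 at day 10, 9.59 at day 12 and 8.38 at day 14, and the labels give no sex. The mix of animals in a pool and the day of collection cannot be told apart.

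All 8 lipoxygenase genes had a higher value on day 12 than on day 10, beside 25.5% of all genes. The size ranged from 1.07-fold for Alox15 and Alox5ap to 7.11-fold for Alox8. The 4 genes of epidermal enzymes, Alox8, Alox12e, Aloxe3 and Alox12b, had the largest differences. From day 12 to day 14 the values of 5 genes were lower and those of 3 were higher, by at most 1.31-fold. Of all genes, 30.8% were lower and 32.7% higher in that pair. For every gene except Alox5ap, day 12 and day 14 lay closer to each other than either lay to day 10. For Alox15 the margin was small, with steps of 0.10 and 0.08. Alox5ap alone had a lower value on day 14 than on day 10, beside 35.6% of all genes.

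**Figure D1:**
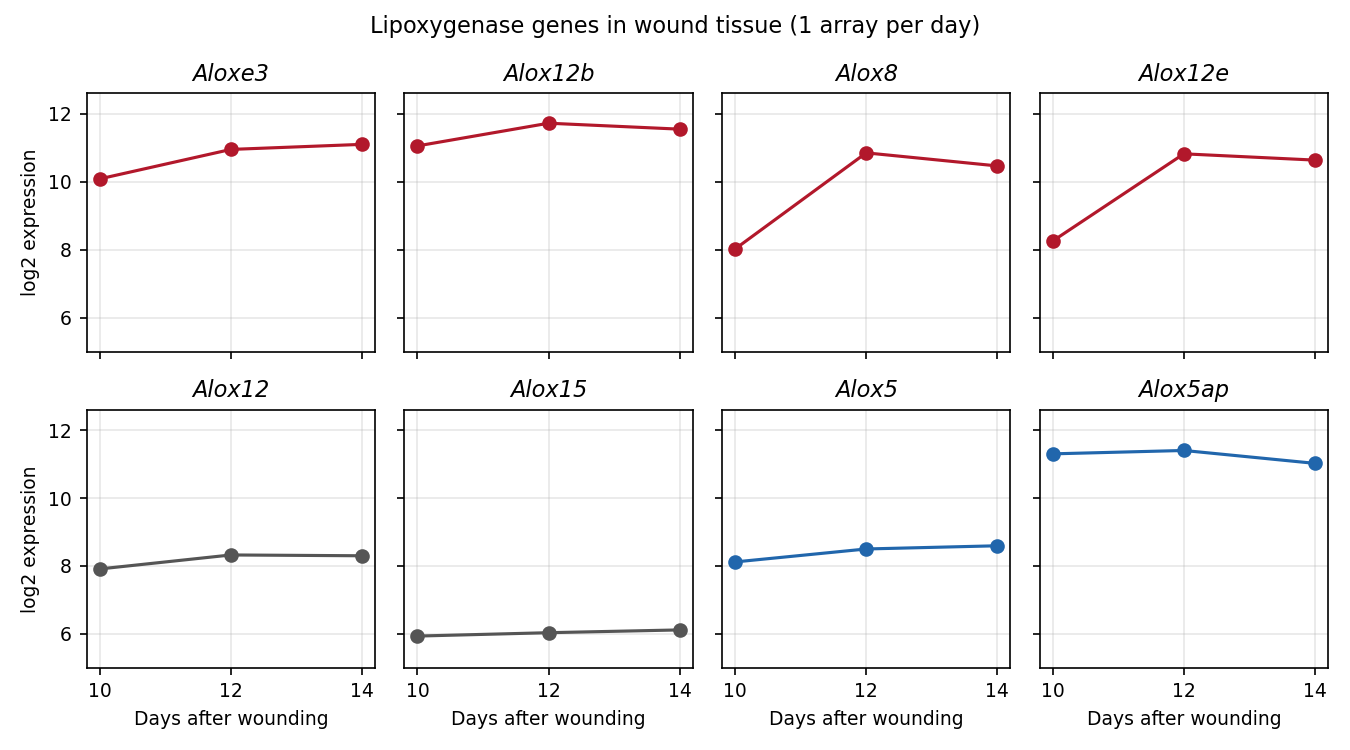
Log2 expression (vertical axis) of the 8 lipoxygenase genes on days 10, 12 and 14 after wounding (horizontal axis), with 1 point per array joined by lines. Red panels are epidermal lipoxygenases, grey panels Alox12 and Alox15, and blue panels the leukotriene genes. Alox8 climbs from 8.02 to 10.9 and Alox12e from 8.26 to 10.8 between day 10 and day 12, whereas Alox15 stays near 6.

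Alox8 encodes the mouse 8-lipoxygenase, an enzyme of stimulated mouse epidermis whose human counterpart is ALOX15B. Its log2 expression was 8.02 at day 10, 10.9 at day 12 and 10.5 at day 14. The day 10 pool was thus far below both later pools, which lay within 0.38 of each other. The value on day 12 was 7.11-fold that on day 10, and the value on day 14 was 5.45-fold that on day 10. Among all 19938 genes, Alox8 ranked 3 in the difference between day 12 and day 10.

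Alox12e encodes an epidermal 12-lipoxygenase of the mouse. It stood at 8.26 at day 10, 10.8 at day 12 and 10.6 at day 14. Its course was close to that of Alox8, low in the first pool and high in the other pools. The difference from day 10 was 2.57 log2 units on day 12, or 5.92-fold, and 2.38 on day 14, or 5.21-fold. It ranked 6 of all genes in the first difference and 18 in the difference between day 14 and day 10, where Alox8 ranked 13.

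The promoters of these 2 genes are shown because both moved by a similar amount while lying in different gene clusters of chromosome 11. With them stands the promoter of Alox12b, which lies next to Alox8 and differed by 0.67. The sequences are from RefSeq on GRCm38.p6, run from 250 bases before an annotated transcript start to 50 bases after it, and were available for 5 of the 8 genes (Alox5, Alox8, Alox12, Alox12b and Alox12e). For Alox12e and Alox12 this start lies inside the outermost end of the gene in the RefSeq gene table. Capitals mark matches to the motifs searched on both strands, which were GGGCGG (the GC box bound by Sp1 and related factors), TGANTCA (bound by AP-1 factors), TATAAA (the TATA box), CCAAT (the CAAT box) and CACGTG (an E-box). The Alox8 window is chr11:69197794-69198093 on the minus strand, the Alox12e window is chr11:70322481-70322780 on the minus strand, and the Alox12b window is chr11:69156822-69157121 on the plus strand.
Alox8: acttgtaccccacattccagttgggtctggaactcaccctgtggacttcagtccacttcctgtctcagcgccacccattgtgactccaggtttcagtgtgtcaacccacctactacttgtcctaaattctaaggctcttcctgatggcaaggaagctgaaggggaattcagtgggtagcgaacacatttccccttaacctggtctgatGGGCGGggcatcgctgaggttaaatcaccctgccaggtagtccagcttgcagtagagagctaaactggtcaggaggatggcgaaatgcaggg
Alox12e: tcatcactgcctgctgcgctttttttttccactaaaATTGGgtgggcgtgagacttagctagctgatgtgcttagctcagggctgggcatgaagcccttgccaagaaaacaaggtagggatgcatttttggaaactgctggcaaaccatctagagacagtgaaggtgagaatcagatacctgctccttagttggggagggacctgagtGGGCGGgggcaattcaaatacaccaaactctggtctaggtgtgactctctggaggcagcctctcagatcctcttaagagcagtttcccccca
Alox12b: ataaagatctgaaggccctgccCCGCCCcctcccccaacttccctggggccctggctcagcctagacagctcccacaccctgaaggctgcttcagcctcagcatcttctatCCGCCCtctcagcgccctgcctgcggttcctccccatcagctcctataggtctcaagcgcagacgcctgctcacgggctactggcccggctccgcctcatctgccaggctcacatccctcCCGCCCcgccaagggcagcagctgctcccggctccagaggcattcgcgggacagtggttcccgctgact

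In both Alox8 and Alox12e, a GGGCGG match began at base 209 of the window, 42 bases before the transcript start. The surrounding run tgggcgggg, of 9 bases, began at base 208 in each, and no longer run was shared by these windows. Runs of this length were not particular to the pair. Alox12b shared a run of 10 bases with Alox8 and another of 10 with Alox5. Alox12 shared runs of 9 bases with Alox12b and with Alox12e. Alox12b held 3 matches to GGGCGG, all on the reverse strand, and Alox12 also held 3. All 5 windows held the motif, which occurred in 35.7% of 32851 promoter windows of the same length. CCAAT was found once, on the reverse strand in Alox12e, and occurs in 37.4% of all windows. The AP-1 motif, the TATA box and the E-box, present in 7.81%, 13.6% and 7.15% of all windows, had no match in any of the 5. These matches describe letters in a window. Alox12, whose difference was 0.41, and Alox5, whose difference was 0.38, held GGGCGG as well, so the motif was shared by genes with large and with small differences.

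Aloxe3 encodes the epidermal lipoxygenase 3, which works mainly as a hydroperoxide isomerase and turns the product of the Alox12b enzyme into an epoxyalcohol. Its log2 expression was 10.1 at day 10, 11.0 at day 12 and 11.1 at day 14. Day 10 was the low pool here as well, and the highest value came on day 14. The value was 1.82-fold higher on day 12 than on day 10, and 2.02-fold higher on day 14.

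Alox12b encodes the 12R-lipoxygenase, which acts before the Aloxe3 enzyme. It stood at 11.1 at day 10, 11.7 at day 12 and 11.6 at day 14. The first pool was lowest and the day 12 pool highest. The differences from day 10 were 0.67 on day 12 and 0.49 on day 14, or 1.59-fold and 1.41-fold. Aloxe3 and Alox12b are neighbours and act on the same lipid, and their differences from day 10 were at most 2.02-fold, against at least 5.21-fold for Alox8 and Alox12e.

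Alox12 encodes the 12-lipoxygenase known from platelets. Its log2 expression was 7.91 at day 10, 8.32 at day 12 and 8.30 at day 14, and the largest difference was 1.33-fold. Its maximum lay just below 8.36, the median over genes of the highest value on the 3 arrays, which served as a level filter. Of 6 platelet and megakaryocyte genes, 4 were higher on day 12 than on day 10, beside 25.5% of all genes. Between day 14 and day 12 there were 3 higher, 2 lower and 1 tied, with a median of 0.01. Among all genes these shares were 32.7%, 30.8% and 36.6%. In the latter pair Pf4 and Ppbp, chemokine genes of platelets, differed by −0.98 and −2.18, and Itga2b, an integrin gene of platelets, by 0.32. The summed level of the list, given as its log2 and set mainly by Pf4 and Ppbp, was 12.5, 13.0 and 11.9 on the 3 days. Alox12 differed by −0.02 in that pair, and the sign turned when the arrays were centred or quantile normalized.

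The level filter of 8.36 was passed by 6 of the 8 lipoxygenase genes and not by Alox12 and Alox15. Alox8, Alox12e and Alox5 stood below 8.36 on day 10 and passed by their later values. On day 12 against day 10, 2 of the 8 exceeded a 2-fold increase, beside 0.787% of all genes, and with the filter 2 of 6, beside 1.48% of 9969 genes. On day 14 against day 10 there were 3 of 8 beside 1.25% of all genes, and 3 of 6 beside 2.24% with the filter. None was 2-fold apart between day 14 and day 12 in either direction, where 0.0552% of all genes were higher and 0.196% lower by that size. The median of the 8 differences was 0.54, −0.10 and 0.48 for day 12 against day 10, day 14 against day 12 and day 14 against day 10, and the median over all genes was 0.00 in each. Since the genes were chosen with these contrasts in view, the counts describe the choice and nothing is read from them. At a 1.5-fold size, 4 of the 8 genes were higher on day 12 than on day 10, beside 2.33% of all genes.

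**Figure D2:**
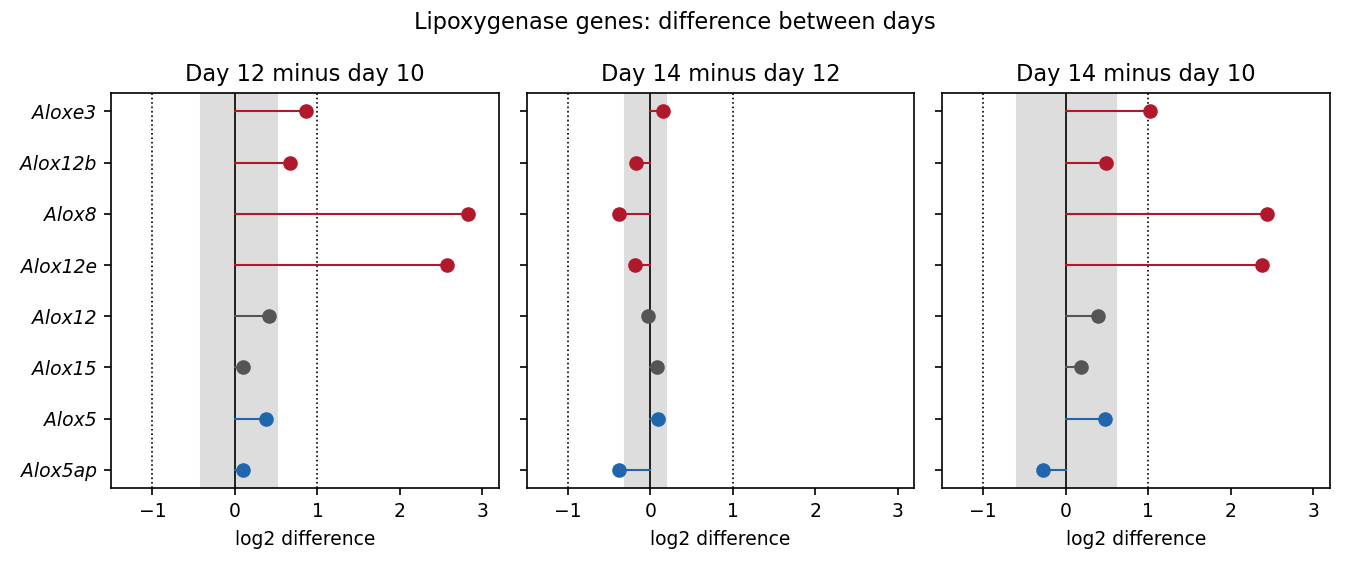
Log2 difference between days (horizontal axis) for each lipoxygenase gene (vertical axis) in the 3 pairs of days. Grey bands run from the 5th to the 95th percentile of 9969 genes above the level filter and dotted lines mark 2-fold. Alox8 and Alox12e stand at 2.83 and 2.57 in the first pair and at 2.45 and 2.38 in the third, and in the second pair both Alox8 and Alox5ap lie just outside the band, at −0.38.

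Alox15 encodes the 12/15-lipoxygenase of eosinophils and resident macrophages. Its log2 expression was 5.94 at day 10, 6.03 at day 12 and 6.12 at day 14, close to the lower quartile of 5.91 to 5.92 over all probe sets of each array. At such a signal a true difference may not be measurable, and background per probe set is unknown. Eosinophil genes were low too. None of the 7 measured eosinophil genes passed the level filter, and Epx, Prg2 and Prg3, which encode granule proteins of eosinophils, stood between 5.81 and 6.16 on all days. Of the macrophage and monocyte genes, in contrast, 8 of 11 passed the filter. The summed eosinophil level, as log2, was 9.09, 9.08 and 9.14 on the 3 days.

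Alox5 encodes the 5-lipoxygenase, which starts leukotriene synthesis. It stood at 8.12 at day 10, 8.50 at day 12 and 8.59 at day 14, so that day 10 was again lowest, and the difference between the last and the first day was 1.39-fold. Alox5ap encodes the protein that presents arachidonic acid to this enzyme. Its log2 expression was 11.3 at day 10, 11.4 at day 12 and 11.0 at day 14, which made day 14 the lowest pool. The difference between day 14 and day 12 was −0.38, or 1.30-fold lower, while Alox5 differed by 0.09 in the opposite direction. Both genes are expressed mainly by myeloid and mast cells, whose markers did not move as one. In bulk tissue, fewer cells of a type and less RNA per cell cannot be told apart.

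Among 11 macrophage and monocyte genes, 9 had a higher value on day 12 than on day 10, beside 25.5% of all genes, and the median was 0.22. In the next pair 8 were lower, beside 30.8% of all genes, and the median was −0.17. Their summed level, as log2, was 14.5, 14.7 and 14.5 on the 3 days. Cd68, Adgre1 and Csf1r, which mark macrophages, differed by −0.21, −0.24 and −0.17 from day 12 to day 14. The neutrophil list had a summed level of 13.4, 13.2 and 12.9. Mmp9 had a large part in that sum, at 12.1, 11.7 and 11.0 on the 3 days. Of the 13 neutrophil genes, 6 passed the level filter, and 8 were lower on day 14 than on day 10, beside 35.6% of all genes. S100a8, S100a9 and Ly6g of that list differed by −0.10, −0.34 and −0.11 between those days, and Ly6g stood between 5.81 and 5.92. Of 10 mast cell and basophil genes, 7 were higher and 1 was lower in the same pair, beside 34.9% and 35.6% of all genes. Cpa3, Mcpt4 and Tpsb2, which encode mast cell proteases, were higher on day 14 than on day 10 by 1.68, 1.92 and 1.57, and the summed level of the list was 11.5, 12.4 and 12.7. All 11 dendritic and Langerhans cell genes were higher on day 14 than on day 10, beside 34.9% of all genes. Their median difference was 0.58, and for 8 T cell genes it was 0.05. Cd207, the langerin gene, stood at 6.11, 6.56 and 6.78, and Itgax and Epcam were 1.37 and 1.56 higher on the last day than on the first. Cd3e, Cd3d and Cd3g, subunits of the T cell receptor complex, differed by 0.02, 0.04 and 0.38. The part of these cells in the values of Alox5 and Alox5ap was not tested.

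Genes whose enzymes act after Alox5 in leukotriene synthesis differed in both directions. Lta4h, which makes leukotriene B4, was 11.0 at day 10, 10.9 at day 12 and 10.7 at day 14. Ltc4s, which makes leukotriene C4, was listed at 7.24 on all 3 arrays, a tie that is not a precise measurement of no difference. Of 11 leukotriene synthesis genes, 5 were higher and 5 lower on day 14 than on day 10, none by 2-fold, with a median of 0.00. Of all genes, 34.9% were higher and 35.6% lower in that pair. Mgst2, a membrane glutathione transferase that can also make leukotriene C4, was 0.87 higher, whereas Mgst1, Ggt5 and Mgst3 differed by −0.57, −0.52 and −0.47. Ggt5 encodes the enzyme that turns leukotriene C4 into D4.

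Of 11 measured receptor genes for lipoxygenase products, 10 had a higher value on day 12 than on day 10 and 1 was equal, beside 25.5% higher and 40.0% equal among all genes. The median was 0.14 and a largest difference of 0.29, in Pparg. Ltb4r1, the high-affinity receptor gene for leukotriene B4, stood at 8.31, 8.51 and 8.51. Cysltr1, a receptor gene for cysteinyl leukotrienes, stood at 9.41, 9.66 and 9.11, so that day 14 was its lowest pool, as for Alox5ap. Between day 14 and day 10, Ltb4r1 and Gpr31b differed by 0.21 and 0.14.

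Phospholipase genes, whose enzymes release arachidonic acid from membranes, had no common course. Of 20 measured, 8 were higher on day 12 than on day 10, 3 were lower and 9 were tied, with a median of 0.00. Among all genes these shares were 25.5%, 34.5% and 40.0%. Pla2g4a, the main cytosolic enzyme of arachidonate release, stood at 9.92, 10.2 and 10.0 on the 3 days. Pla2g2f, a secreted phospholipase of the upper epidermis, was 10.5, 11.3 and 11.7 on the same days, or 2.25-fold higher on day 14 than on day 10. Pla2g4f and Pla2g2d were 0.74 and 0.46 higher between these days. Pla2g4d stood at 8.59, 9.20 and 7.89, which was 2.47-fold lower on day 14 than on day 12. Of the cyclooxygenase genes, which use the same fatty acid, Ptgs2 was measured here and was 10.3, 10.8 and 8.83. Its value on day 14 was 3.85-fold below that on day 12, a size not reached by any lipoxygenase gene in that pair.

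Genes of acylceramide synthesis and of the corneocyte lipid envelope, the pathway that Alox12b and Aloxe3 serve, were mostly higher on day 12. All 30 measured genes passed the level filter. Of these, 28 were higher on day 12 than on day 10 and 2 were lower. Their median was 0.34. Among the 9969 genes above the level filter, 33.2% were higher and 45.7% lower in that pair, with a median of 0.00. On day 14 against day 12, 17 were higher and 10 lower, with a median of 0.01. Of the genes above the filter, 24.9% were higher and 50.3% lower. Lipn and Lipk, lipase genes of the granular layer, were 3.91-fold and 3.67-fold higher on day 14 than on day 10. Acer1, an alkaline ceramidase gene of the epidermis, was 2.62-fold higher, and Fads2, a fatty acid desaturase gene, was 2.27-fold lower. Lipn and Lipk stood at 7.75 and 7.63 on day 10, below the level filter, and passed by their later values. The filter itself favours high differences in such genes.

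Genes whose enzymes act before or after those of Alox12b and Aloxe3 were higher on day 12 as well. Cyp4f39, whose enzyme hydroxylates the very long acyl chain of acylceramides, was 0.35 higher on day 12 than on day 10. Cers3, a ceramide synthase gene, was 0.32 higher, and Pnpla1, whose enzyme joins linoleate to the ceramide, was 0.78 higher. Sdr9c7, whose enzyme oxidises the product of the Aloxe3 step, stood at 11.3, 11.7 and 11.7. Ephx3, an epoxide hydrolase gene of the epidermis that acts on linoleate epoxides, stood at 11.4, 12.0 and 11.8, a course with the same order of days as Alox12b. Alox12b, at 0.67, and Aloxe3, at 0.87, lay inside the range of −0.94 to 1.53 of the 30 genes, and Alox8 and Alox12e lay above it.

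Several glutathione peroxidase genes had lower values on the later days. Gpx4, the glutathione peroxidase that reduces hydroperoxides within membranes, stood at 10.2, 9.81 and 9.78. Gpx3, Gpx7 and Gpx8 of the same family differed by −0.74, −0.57 and −0.50 on day 14 against day 10, and Gpx1 differed by 0.03. In the whole list of 22 hydroperoxide and epoxide genes, 7 were higher and 11 lower between these days, beside 34.9% and 35.6% of all genes. The median was 0.00 over all measured members and −0.24 over the 15 above the level filter.

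**Figure D3:**
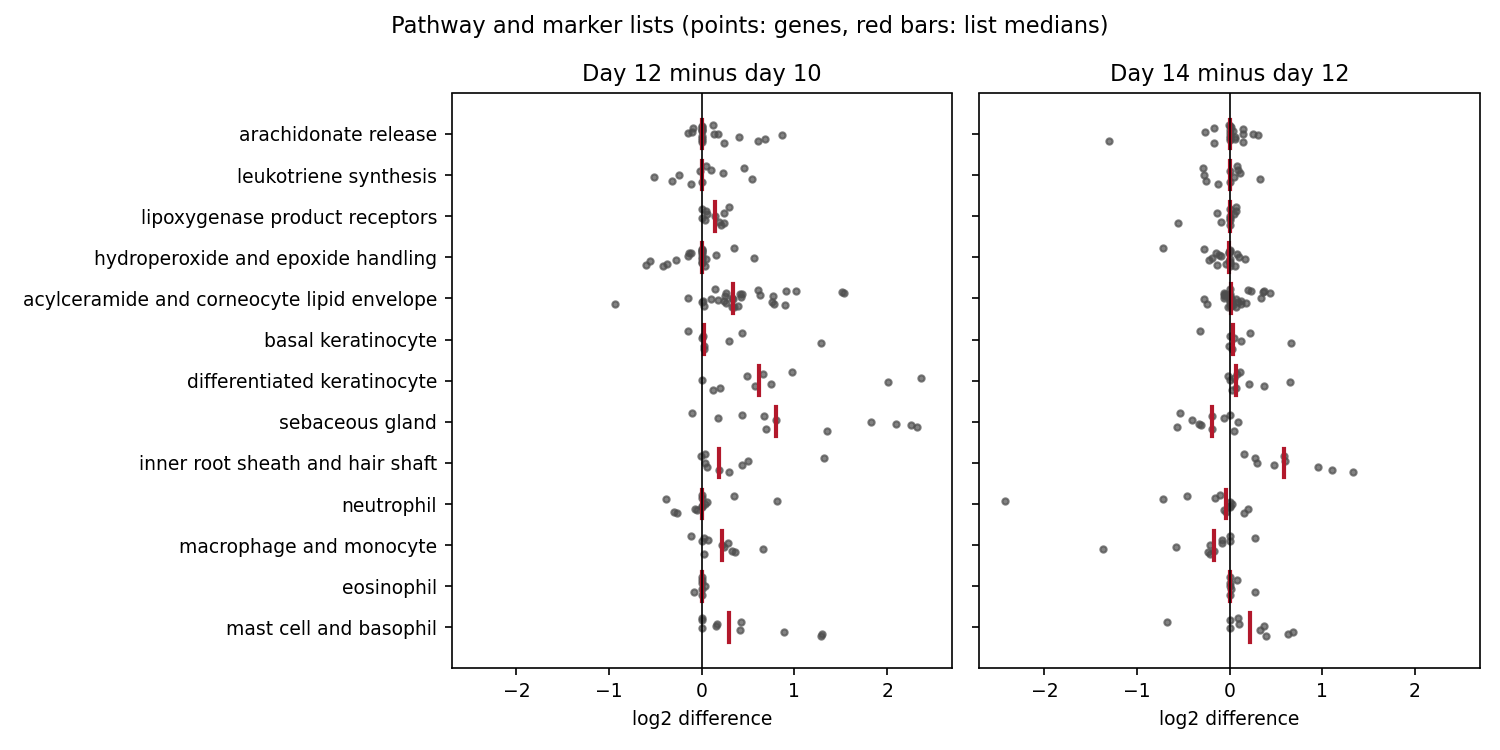
Log2 differences (horizontal axis) on day 12 against day 10 and day 14 against day 12 for the genes of 5 pathway and 8 marker lists (vertical axis). Points are single genes and red bars are list medians. In the first pair the sebaceous, differentiated keratinocyte and acylceramide medians stand at 0.81, 0.61 and 0.34, and in the second pair the sebaceous median is −0.19 and that of the inner root sheath and hair shaft is 0.58.

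Markers of differentiated epidermis were higher on the same days as the epidermal lipoxygenase genes. Of 10 differentiated keratinocyte genes, 9 had a higher value on day 12 than on day 10, beside 25.5% of all genes, and 1 was tied, and the median was 0.61. Their summed level, as log2, was 15.3 at day 10, 15.8 at day 12 and 15.9 at day 14. Krt1, Krt10 and Ivl, genes of the layers above the basal layer, differed by 0.12, 0.19 and 0.57. Basal genes had a summed level of 14.8, 14.9 and 15.0. Of 8 basal genes, 7 were also higher on day 12 than on day 10 and 1 was lower, with a median difference of 0.02. Among all genes these shares were 25.5% and 34.5%. Krt5, Krt14 and Krt15 differed by 0.02, 0.02 and 1.28, Col17a1 and Trp63 by 0.43 and 0.29, and Cdh3 by −0.15. The 8 fibroblast genes, beside these, had a median of 0.00. The part of epidermal makeup in the lipoxygenase values was not tested.

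Some sebaceous gland genes had differences of a size like those of Alox8 and Alox12e, as did Krt77 and Flg2 of the differentiated keratinocyte list. Of 11 sebaceous genes measured, 10 were higher on day 12 than on day 10, beside 25.5% of all genes. At least 2-fold higher were 5 of them, beside 0.787% of all genes. The median was 0.81 over all measured members and 1.96 over the 6 above the level filter. Of these 6, Elovl3, Fa2h and Far2 stood at 6.36, 7.48 and 8.02 on day 10, below the filter of 8.36. They passed by their later values, so the filter itself favours a high median here. On day 14 against day 12, 8 of 11 were lower, beside 30.8% of all genes, with a median of −0.19. The summed level, as log2, was 12.9, 13.9 and 13.7, with the highest value on day 12 as in Alox8, Alox12e and Alox12b. Scd1, Mc5r and Elovl3, the first of the list, stood at 10.5, 5.90 and 6.36 on day 10 and at 11.8, 6.59 and 8.68 on day 12. In the inner root sheath and hair shaft list, 8 of 9 genes were higher on day 12 than on day 10 (median 0.19), beside 25.5% of all genes. On day 14 against day 12, 9 of 9 were higher, beside 32.7% of all genes. Krt71, Krt25 and Krt27 of that list were 1.33, 1.10 and 0.95 higher in that pair, while Alox8 and Alox12e differed by −0.38 and −0.18. The part of sebaceous or follicle cells in the values of Alox8 and Alox12e was not tested.

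The genes most like each lipoxygenase gene in course were sought by the distance between their 2 steps, day 12 minus day 10 and day 14 minus day 12, among genes above the level filter. This likeness rests on 3 arrays and is a description. The family was selected on these differences, and Alox8 and Alox12e ranked 3 and 6 of all genes in the first step. Few genes could therefore lie near either, and nothing is read from their closeness. The nearest gene to Alox8 was Alox12e, at a distance of 0.33 log2 units. Cyp2g1, a cytochrome P450 gene, followed at 0.34, Elovl3, a fatty acid elongase gene, at 0.54, Fa2h, a fatty acid hydroxylase gene, at 0.58 and the keratin gene Krt77 at 0.63. The 5 nearest to Alox12e were Cyp2g1 at 0.20, Krt77 at 0.30, Alox8 at 0.33, Fa2h at 0.33 and Mill1 at 0.37. Cyp2g1, Krt77 and Fa2h were named for both. Elovl3 and Fa2h also belong to the sebaceous list and Krt77 to that of differentiated keratinocytes.

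The 5 genes nearest to Aloxe3 lay closer to it than those of Alox8 and Alox12e did to theirs. They were Prss8 at 0.02, Adamts5 at 0.03, Card14 at 0.03, Tmprss11f at 0.03 and Slc15a1 at 0.04. Aloxe3 ranked 217 of all genes in the first step, against 3 for Alox8 and 6 for Alox12e, so more genes could lie near it. The shorter distances go with this rank, and nothing is read from them. Prss8 encodes a serine protease needed for the epidermal barrier, and Card14 a scaffold protein of keratinocyte signalling. Between lipoxygenase genes, the smallest distance was 0.12, for Alox5 and Alox12, and the largest was 2.77, for Alox8 and Alox15.

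**Figure D4:**
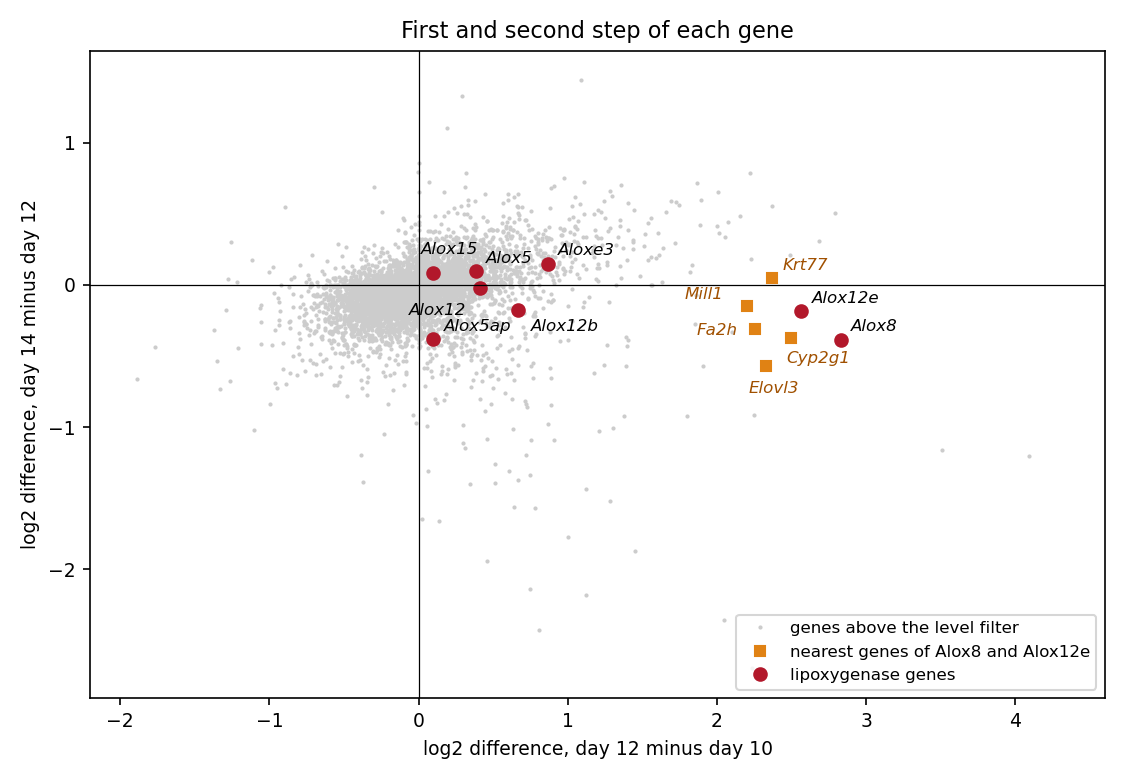
Log2 difference of day 12 minus day 10 (horizontal axis) against day 14 minus day 12 (vertical axis). Grey points are the 9969 genes above the level filter, red circles the 8 lipoxygenase genes, and orange squares the nearest genes of Alox8 and Alox12e that are not lipoxygenase genes. Alox8 and Alox12e lie apart on the right, at 2.83 and 2.57, and the other lipoxygenase genes lie between 0.10 and 0.87.

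Of the 8 genes, 6 lie on chromosome 11 in the RefSeq map, in 2 groups of neighbours, while Alox5 and Alox5ap lie on chromosomes 6 and 5. The map order of the first group is Aloxe3, Alox12b and Alox8, and that of the second is Alox12, Alox12e and Alox15, with no other protein-coding gene between them. Within each group the differences were unequal. On day 12 against day 10 they were 0.87, 0.67 and 2.83 in the first group and 0.41, 2.57 and 0.10 in the second, so that 1 gene of each group was more than 5-fold higher while its neighbours were below 2-fold.

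The flanking genes, looked up after the values of the lipoxygenase genes were known, did not share these differences. Hes7 and Gucy2e, on either side of the first group, differed by 0.00 and 0.03 on day 12 against day 10. Per1, a circadian clock gene beyond Hes7, differed by −0.30, and Cntrob was tied on all arrays. Hes7, Gucy2e and Cntrob stayed below the level filter on all days. The tied values of Hes7 in this pair and of Cntrob are not a precise measurement of no difference. Rnasek and Pelp1, on either side of the second group, differed by −0.40 and −0.17, and the next genes outward, 0610010K14Rik and Arrb2, by −0.68 and −0.15. Lipoxygenase genes are similar in sequence, and signal shared between them through similar probes was not tested.

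**Figure D5:**
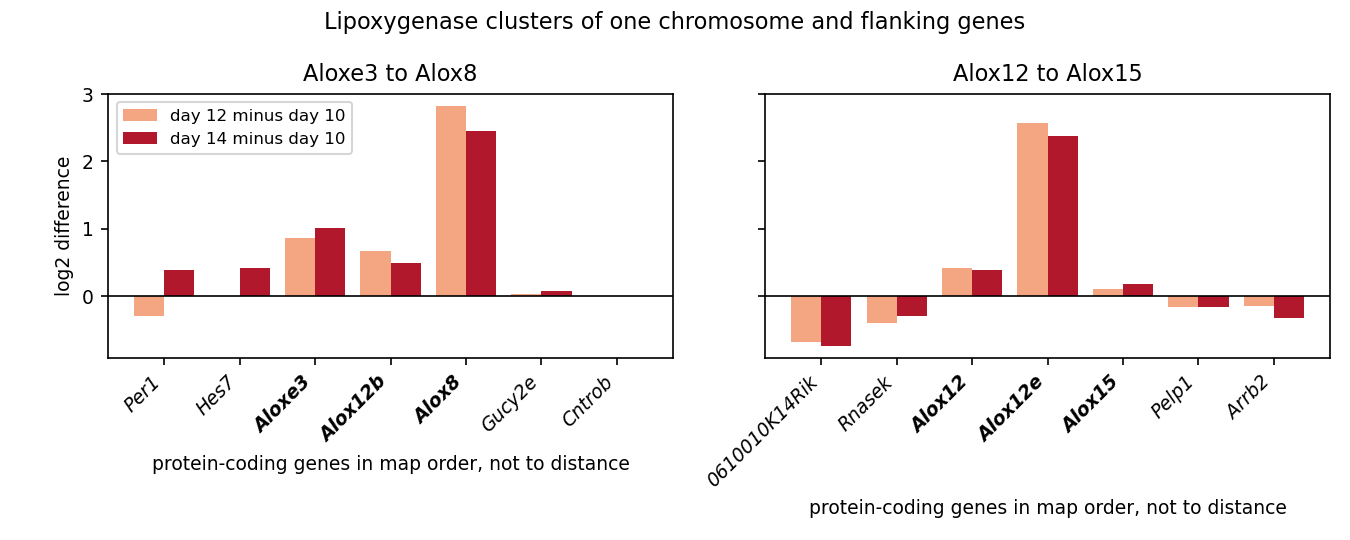
Log2 difference (vertical axis) on day 12 (light bars) and day 14 (dark bars) against day 10 for the protein-coding genes of both lipoxygenase groups of chromosome 11, in map order and not to distance, with the lipoxygenase genes in bold. Alox8 and Alox12e stand at 2.83 and 2.57 on day 12, and the highest flanking bar is 0.42, for Hes7 on day 14.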

How the data were processed

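Total RNA from pooled wound tissue was measured on 1 one-colour array for each of 3 days. Per the labels' protocols, 250 ng of RNA was amplified and biotin-labelled. The authors deposited a log2 value for each probe set on each array, and the submitters' processing notes list RMA and Partek 6.6 but give no role for either. The log2 scale was taken from the range of 4.37 to 14.1. No further scaling was applied. The platform annotation gave 1 symbol for 21789 probe sets, several for 1621 and did not list 12146. Probe sets with 1 symbol were averaged per symbol, giving 19938 genes. Folds are 2 to the power of the log2 difference. With 1 array per day no test was made, and the number of arrays limits the precision. For 627 genes with several probe sets, the SD of a probe set's difference around the mean of a pair was 0.08, 0.06 and 0.10 for the 3 pairs of days. It compares probe sets on the same arrays. Variation between arrays or between animals is left out, so it is not the error of a difference between days. Counting and distance steps were tested on simulated data. Python 3.11.15, pandas 2.3.3 and limma 3.58.1 in R 4.3.3 were used.

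The members and the 18 gene lists were chosen with earlier results of these data known. Named were the 8 members, the 4 genes of each pathway list with the largest difference between day 14 and day 10, 11 further pathway genes, up to the first 3 measured genes of each marker list, and the 5 nearest genes of each member at least 2-fold apart. Flanking genes, Y-linked genes and a few further list members (such as Gpx1) were chosen after their values were seen. Alternatives were other scalings, filters, thresholds and probe set rules. The genome build behind the array values is not given in the sources used here.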

Additional observations from a re-analysis of the deposited data

How the results depend on the processing

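The 24 differences between days of the 8 lipoxygenase genes moved by less than the spread between probe sets under centring of the arrays (at most 0.02), quantile normalization (at most 0.05) and cyclic loess (at most 0.04). The sign changed for Alox12 on day 14 against day 12 under centring and quantile normalization. The brightest probe set and the inclusion of probe sets with several symbols changed 0 of the values, since each gene has 1 probe set. For day 12 against day 10, the count of 2 genes past 2-fold became 4 at 1.5-fold, and 1 with a filter on a mean in the top 25%, a filter that 4 of the 8 genes passed and Alox8 did not. The other counts of lipoxygenase genes stayed within 1.5 times. All 54 list medians moved by less than the spread under centring and quantile normalization, and 22 of 51 moved by more when members below the level filter were left out. The 5 nearest genes of Alox8, Alox12e and Aloxe3 were the same after quantile normalization. With 1 array per day, leaving out a replicate was not possible, and detection of weak signals such as Alox15 is unknown. No paired analysis was possible because each day has 1 array.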
